A study of Bos taurus with 12 samples.

Results

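The miR-191 and miR-425 cluster comprised 3 mature miRNAs in bovine granulosa cells, namely bta-miR-191, bta-miR-425-5p and bta-miR-425-3p. They were chosen by name, as the products of the neighbouring miR-191 and miR-425 precursors, and they were 3 of the 755 mature miRNA names counted. Each had 1 precursor entry among 906 entries, so no choice between precursors was needed for them. All 3 had at least 1 read in each of the 12 libraries and all 3 were tested in every comparison.

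Small RNA was sequenced from granulosa cells, the somatic cells that surround the oocyte, of Simmental heifers. Cells came from subordinate (SF) or dominant (DF) follicles, on day 3 or on day 7 of the cycle, with 3 biological replicates in each of the 4 groups. All heifers had been synchronized with the prostaglandin F2α analogue cloprostenol and the GnRH analogue buserelin, and different heifers were slaughtered on the 2 days. SF and DF were told apart by follicle diameter, with limits that differed between the days, and follicular fluid was pooled by follicle size before the cells were spun down, so a library can hold cells of several follicles. DF at day 7 came from the fewest follicles, 3 by the paper's count, for its 3 libraries. The animals behind each replicate are not given in the sources used here. No age of the heifers is given there either, and p-values measure the spread between these libraries.

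miRNAs are short RNAs cut from hairpin precursors, and each strand of a hairpin can give a mature miRNA, named 5p or 3p after the arm it comes from. The arm that is kept pairs with messenger RNAs and lowers their output. miR-191 and miR-425 are made from a shared primary transcript, which in human lies in an intron of DALRD3, and the locus has been described as responsive to estrogen in breast cancer cells. miR-191 is in wide use as a reference miRNA for normalizing qPCR. In the bovine gene table used here, of an assembly (ARS-UCD2.0) other than the one used for counting, MIR191, MIR191B and MIR425 followed one another between NDUFAF3 and DALRD3. MIR191B overlapped MIR191 there and is not analysed here on its own, and which of these loci gave the reads of miR-191 cannot be told from the counts. DALRD3 was the next gene after MIR425 in that order. Of the neighbouring genes looked at, from QRICH1 to P4HTM, none enclosed both precursors, and genes beyond them were not checked.

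The libraries held between 160418 and 405129 reads on known miRNAs, counted with 1 entry per mature name, and 3 reads, taken as the floor of detection, made 0.000741% to 0.00187% of a library. That floor covers counting error only, since PCR copies were not told apart. Levels below are normalized read counts, that is raw reads after scaling each library by its size factor (median of ratios over all 12). They are not adjusted for ligation preference, which differs between miRNAs, so ratios between members describe reads and not molecules. The label of granulosa cells was checked with miR-202 and miR-383, 2 miRNAs of gonadal somatic cells. miR-202 had normalized read counts between 2269 and 3766 in the 9 libraries of SF and of DF at day 3, and 374 to 1000.3 in the 3 libraries of DF at day 7. miR-383 had at most 4.14 in any library and no reads in DF at day 7. The DF libraries of day 7 therefore stood apart in a marker of the labelled cell type. They enter SF against DF at day 7, DF over time, the interaction and every value over all 12 libraries, and the markers of other cell types are given with the change in DF over time.

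miR-191 was among the most abundant miRNAs of these cells. It took between 1.84% and 5.49% of the reads of a library and ranked between 4th and 16th among all names. In SF at day 3 the 3 libraries had 9082, 9006 and 9720 normalized read counts. In DF at day 3 they had 11288, 11924 and 12832. In SF at day 7 they had 12009, 8102 and 9024. The first of these SF libraries stood within the range of DF at day 3, and the other 2 lay near the SF libraries of day 3. In DF at day 7 the libraries had 5158, 6065 and 5540, lower than every library of the other groups. At day 3 the mean was 9269 ± 392 (SD, n = 3) in SF against 12014 ± 776 in DF. At day 7 it was 9712 ± 2042 against 5588 ± 455. From the highest to the lowest mean the order was DF at day 3, SF at day 7, SF at day 3 and DF at day 7. The ranges of the 3 higher groups overlapped from neighbour to neighbour, and only the last step, of 1.66-fold, had no overlap. The spread between replicates, with coefficients of variation between 4.23% and 21.0%, was wider than counting alone would give (0.819% to 1.46%), so depth did not limit the values of miR-191.

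miR-425-5p was far less abundant and had the same lowest and highest groups. It had 1560 reads over the 12 libraries, 45 to 233 per library, and ranked between 79th and 114th. Its normalized read counts were 106, 130 and 155 in the SF libraries and 149, 146 and 169 in the DF libraries of day 3. At day 7 they were 153, 109 and 127 in SF and 80.7, 76.8 and 86.7 in DF. The DF libraries of day 7 lay under all 9 others, while the other 3 groups overlapped with their neighbours in the order DF at day 3, SF at day 3, SF at day 7. The means were 130 ± 24.7 (SD, n = 3) and 155 ± 12.7 in SF and DF at day 3, and 130 ± 22.4 and 81.4 ± 5.03 at day 7. The step from SF to DF at day 7 was 1.59-fold. For this miRNA counting error alone gave a coefficient of variation of 7.23% to 11.9%, and the observed ones were 6.18% to 18.9%, so a good part of the spread was of the size that the depth allows.

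miR-425-3p, the other arm of the miR-425 hairpin, was close to the floor. It had 78 reads in all, 4, 7 and 1 in the SF and 11, 17 and 7 in the DF libraries of day 3, and 6, 6 and 5 in the SF and 5, 2 and 7 in the DF libraries of day 7. In 2 libraries, of SF at day 3 and of DF at day 7, the count lay under the floor of 3 reads. At day 3 the normalized mean was 4.86 ± 4.33 (SD, n = 3) in SF against 8.72 ± 1.83 in DF. At day 7 it was 5.57 ± 0.618 against 4.75 ± 1.56. DF at day 3 was highest, without overlap with SF at day 7, and the remaining neighbours in the order overlapped. The nearest libraries of DF at day 3 and SF at day 7 had 7 and 6 reads, a gap within counting error. Counting error alone was between 29.8% and 50.8% of the group means. At this depth even a fitted difference of 1.95-fold, between SF and DF at day 3, was not detected in the test given below. The plot of normalized read counts by library shows all 3 members.

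**Figure D1:**
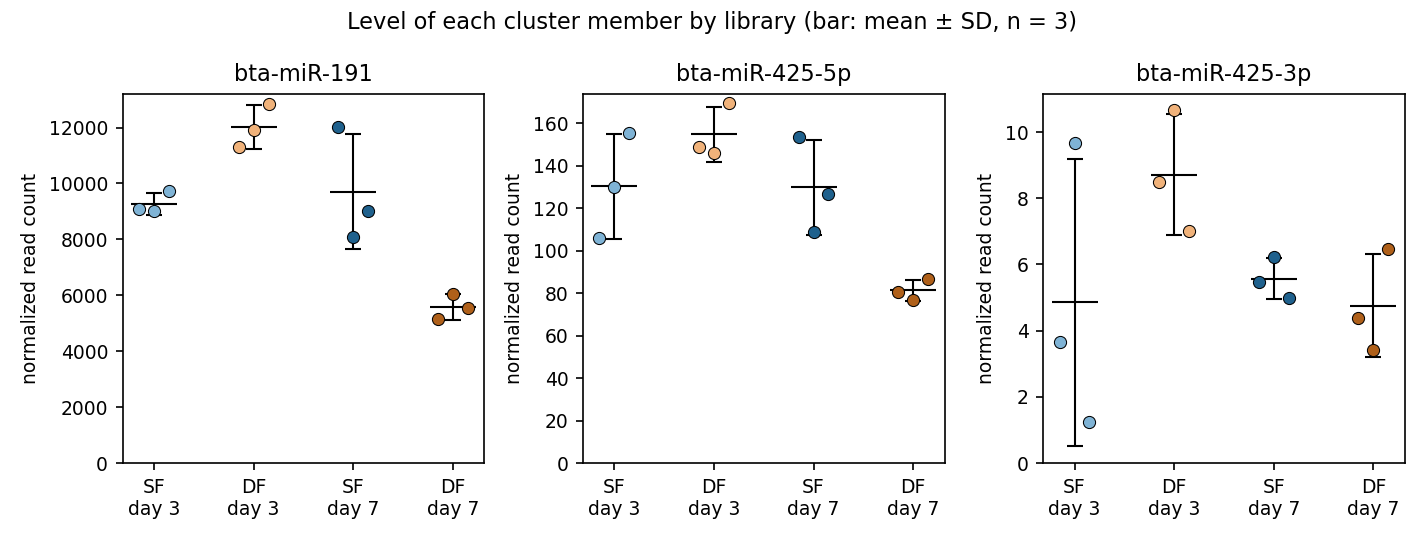
Normalized read count of bta-miR-191, bta-miR-425-5p and bta-miR-425-3p (y axes, from 0, with a scale of their own) in the 4 groups (x axis). Each point is a library and the bars are the mean ± SD of 3. For bta-miR-191 and bta-miR-425-5p the 3 DF libraries of day 7 lie under all others, at 5158 to 6065 and at 76.8 to 86.7, whereas bta-miR-425-3p, at 1.25 to 10.7, overlaps between DF at day 7 and both SF groups.

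The products of the cluster were present in very unequal amounts of reads. miR-191 gave 98.6% of the reads of the 3 members (98.3% to 98.8% in single libraries), miR-425-5p 1.32% and miR-425-3p 0.0662%. Within the miR-425 hairpin, 95.2% of 1638 reads came from the 5p arm (95% Wilson interval 94.1 to 96.2%). Summed within groups, this share at day 3 was 96.5% (94.0 to 98.0) for SF against 94.4% (92.4 to 96.0) for DF. At day 7 it was 95.9% (93.6 to 97.4) against 94.3% (90.6 to 96.6). These intervals, which cover counting error only, overlapped one another, and the 5p arm was the main product in every library.

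The comparison of SF with DF at day 3 addresses the time around the recruitment and selection of follicles. miR-191 was slightly lower in SF, with a log2 fold change of -0.42 ± 0.11 (SE) and no overlap between the libraries (adjusted p = 0.0121, edgeR's quasi-likelihood test, Benjamini-Hochberg adjusted over the 335 miRNAs tested). It passed the false discovery rate (FDR) of 10% but not the log2 fold change of 1 that a call also required, and 1.34-fold was the size of the difference. miR-425-5p had a log2 fold change of -0.30 ± 0.19 (adjusted p = 0.355) and miR-425-3p one of -0.96 ± 0.59 (adjusted p = 0.319), and the SF and DF libraries of both overlapped. All 3 estimates pointed to fewer reads in SF, and 0 of the 3 were called by edgeR (1 of the 3 at an unadjusted p of at most 0.05) or by DESeq2. Among all miRNAs tested here 5.67% were called in either direction, 16.7% passed the FDR at any fold and 27.8% had no overlap between the groups, with a median log2 fold change of -0.04.

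Single libraries and the samples in the fit decided 2 of these values. Without SF replicate 2 of day 3 the log2 fold change of miR-425-3p was -1.82 and was called (adjusted p = 0.0934), on 5 reads in the remaining SF libraries. For miR-191 the adjusted p was 0.237 when all 12 libraries shared one estimate of the spread. The theca and stroma miRNAs miR-143 and miR-145 were higher in SF than in DF at day 3, by 0.53 ± 0.16 and 0.65 ± 0.20 on the log2 scale (adjusted p = 0.0239 and 0.0369, below the fold threshold), and their part in the result was not tested.

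At day 7, the time when one follicle has become dominant, the direction was the opposite. miR-191 was higher in SF than in DF by 0.87 ± 0.21 (SE) on the log2 scale, or 1.82-fold (adjusted p = 0.0102, edgeR, 350 miRNAs tested). miR-425-5p was higher in SF by 0.75 ± 0.24, or 1.68-fold (adjusted p = 0.0402). The SF and DF libraries did not overlap for either, and both passed the FDR but stayed under the fold threshold. miR-425-3p had a log2 fold change of 0.26 ± 0.53 (adjusted p = 0.718) with overlapping libraries. So 2 of the 3 members passed the FDR and 0 were called by edgeR (2 of the 3 at an unadjusted p of at most 0.05) or by DESeq2, against 33.4% of all miRNAs called, 39.7% past the FDR at any fold and 45.7% without overlap. At this day differences of this size were common among the miRNAs, whose median log2 fold change was -0.05. Cell type markers differed between the same libraries. The gonadal miR-202 was called higher in SF (1.81 ± 0.31 on the log2 scale), and the leukocyte miR-142-5p (-3.40 ± 0.83) and miR-150 (-3.74 ± 0.89) and the stroma miR-143 (-1.32 ± 0.29) were called lower in SF. Their part in the result was not tested.

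SF replicate 1 carried part of the difference of miR-191 at day 7. Without it the log2 fold change was 0.70 (adjusted p = 0.0227). For miR-425-5p the adjusted p rose to 0.144 without DF replicate 1, at an unmoved log2 fold change of 0.75, and it was 0.117 at a log2 fold change of 0.60 with library size alone in place of size factors.

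In DF, the 2 abundant members of the cluster were lower at day 7 than at day 3. miR-191 fell by 1.12 ± 0.17 (SE) on the log2 scale, or 2.17-fold (adjusted p = 0.000127, edgeR, 360 miRNAs tested), and was called. Every one of the 3 DF libraries of day 7 had less than every DF library of day 3. miR-425-5p was lower by 1.92-fold, with a log2 fold change of -0.94 ± 0.22 (adjusted p = 0.00402) and no overlap, just short of the fold threshold. miR-425-3p had a log2 fold change of -0.86 ± 0.54 (adjusted p = 0.224), also without overlap between the groups, on 14 reads at day 7. The nearest libraries, replicate 3 of each day, both had 7 raw reads (7.01 normalized at day 3 and 6.46 at day 7). The gap between these groups therefore came from size factors and lay within counting error. In this comparison 40.3% of all miRNAs were called, 47.2% passed the FDR at any fold and 50.0% did not overlap, with a median log2 fold change of 0.05. With 1 called member of 3, the count in the cluster was not apart from that share.

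The call of miR-191 was the steadiest of the cluster. It was called in all 17 alternatives tried, with log2 fold changes between -1.27 and -1.04 and adjusted p between 2.99e-09 and 0.00223. miR-425-5p was called in 4 of its 17 alternatives, in which its log2 fold change was between -1.09 and -1.004, and it passed the FDR in all 17. The plot of log2 fold changes by comparison shows the members side by side.

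**Figure D2:**
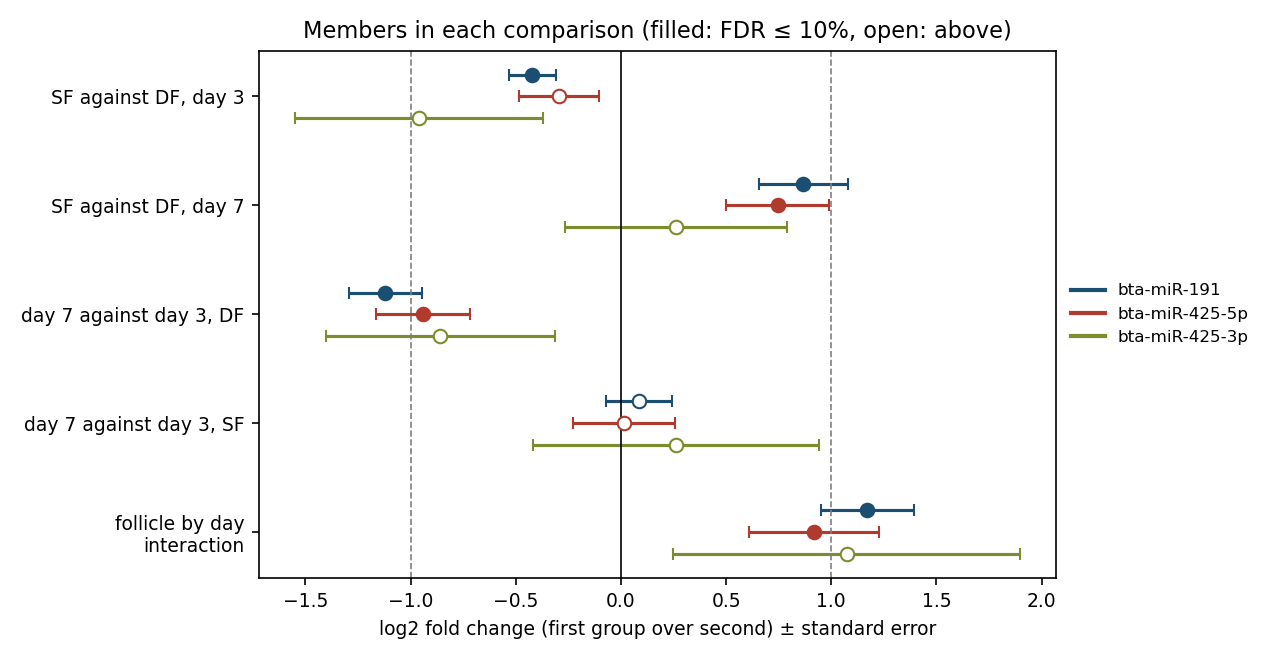
Log2 fold change (x axis, first group over second, bars ± SE) of the 3 members in the 4 comparisons and in the interaction of follicle class and day (y axis). Filled points passed an FDR of 10%, open points did not, and dashed lines mark the log2 threshold of 1 in each direction. bta-miR-191 lies at -0.42 at day 3 and 0.87 at day 7 for SF against DF, at -1.12 in DF over time and at 0.08 in SF over time.

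The miRNAs of leukocytes and stroma were higher in DF at day 7 than at day 3, and those of erythrocytes and endothelium only in part. The summed normalized read count of 4 leukocyte miRNAs (miR-142-5p, miR-142-3p, miR-150 and miR-223) was 803 to 8856 in DF at day 7, and 118 to 166 in DF at day 3, 110 to 226 in SF at day 3 and 189 to 723 in SF at day 7. In DF at day 7 most of it was miR-142-5p (659 to 7019) and miR-150 (138 to 1822). There miR-142-3p (0.923 to 6.82) and miR-223 (4.61 to 8.53) were near the floor. All 4 were called higher in DF at day 7 than at day 3, where 40.3% of all miRNAs were called in either direction. In SF against DF at day 7, 3 of 4 were called lower in SF, beside 33.4% of all miRNAs called. The sum of miR-143 and miR-145 was 6894 to 14552 in DF at day 7 and 2262 to 5033 in the other 9 libraries, with both called higher in DF at day 7 than at day 3. Most of that sum was miR-143 (6638 to 14236 in DF at day 7). The erythrocyte list (miR-451, miR-486 and miR-144) summed to 829 to 2381 in DF at day 7 and 755 to 1114 in DF at day 3, where only miR-451 of the 3 passed the FDR over time in DF, under the fold threshold. In SF it summed to 323 to 1684 at day 3 and 449 to 528 at day 7, where both members tested were called lower than in DF. The endothelial pair miR-126-5p and miR-126-3p summed to 133 to 164 in DF at day 7 and 63.1 to 104 in DF at day 3, with miR-126-3p called higher. In SF they summed to 105 to 134 at day 3 and to 93.2 to 226 at day 7. Of the gonadal pair, miR-202 fell by 2.28 ± 0.29 on the log2 scale in DF over time (adjusted p = 1.93e-05).

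Within DF at day 7 the leukocyte sum was 3189, 8856 and 803 in replicates 1, 2 and 3, whereas miR-191 was 5158, 6065 and 5540 in the same order. miR-425-5p was 80.7, 76.8 and 86.7 and miR-202 was 772, 374 and 1000.3. The library with the most leukocyte reads, replicate 2, thus had the highest miR-191 and the lowest miR-425-5p and miR-202 of the 3. Without it, miR-191 in DF was lower at day 7 by a log2 fold change of -1.19 (adjusted p = 5.36e-05) and miR-425-5p by one of -0.91 (adjusted p = 0.00538), and in SF against DF at day 7 the log2 fold changes were 0.94 and 0.71. The leukocyte, stroma, endothelial and gonadal sums lay outside the range of DF at day 3 in all 3 DF libraries of day 7. Their part in the result was not tested. In bulk samples of this kind fewer granulosa cells and less RNA per granulosa cell cannot be told apart.

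In SF no difference between the days was found for the cluster. The log2 fold change of day 7 over day 3 was 0.08 ± 0.16 (SE) for miR-191 (adjusted p = 0.930), 0.01 ± 0.24 for miR-425-5p (adjusted p = 0.980) and 0.26 ± 0.68 for miR-425-3p (adjusted p = 0.937) in edgeR over 337 miRNAs. The libraries of the 2 days overlapped for each. With 0 of the 3 members called by edgeR (also 0 of the 3 at an unadjusted p of at most 0.05) or by DESeq2, the cluster was like most miRNAs, of which 0.593% were called, 0.89% passed the FDR at any fold and 13.9% had no overlap, with a median log2 fold change of 0.03. The sign of the miR-191 and miR-425-5p values was not stable, with ranges of -0.11 to 0.17 and -0.15 to 0.15 over the alternatives, and these p-values do not show that the levels were equal.

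Whether the difference between SF and DF itself moved from day 3 to day 7 was tested as an interaction over all 12 libraries. For miR-191 the interaction was 1.17 ± 0.22 (SE) on the log2 scale (adjusted p = 0.000749, edgeR, 378 miRNAs tested), and it was called. That of miR-425-5p was 0.92 ± 0.31 (adjusted p = 0.0363), past the FDR and under the fold threshold. That of miR-425-3p was 1.07 ± 0.82 (adjusted p = 0.393). A positive value means that SF stood higher relative to DF at day 7 than at day 3, which for miR-191 went with a change of order, from DF above SF to SF above DF. Among all miRNAs 26.5% had a called interaction and 29.1% passed the FDR at any fold, with a median of 0.02. Without SF replicate 1 of day 7 the interaction of miR-191 was 0.98 (adjusted p = 0.000669), just under the fold threshold, and without SF replicate 1 of day 3 that of miR-425-5p was 0.79 (adjusted p = 0.104). The interaction was also called for the markers miR-202 (2.04), miR-143 (-1.98), miR-145 (-1.66), miR-451 (-1.82), miR-142-5p (-3.79) and miR-150 (-3.84). It was not called for miR-383, miR-142-3p, miR-223, miR-486, miR-144, miR-126-5p and miR-126-3p. The part of these markers in the interaction of the members was not tested. The interaction and the pairwise comparisons use the same libraries, so they are not independent of one another.

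**Figure D3:**
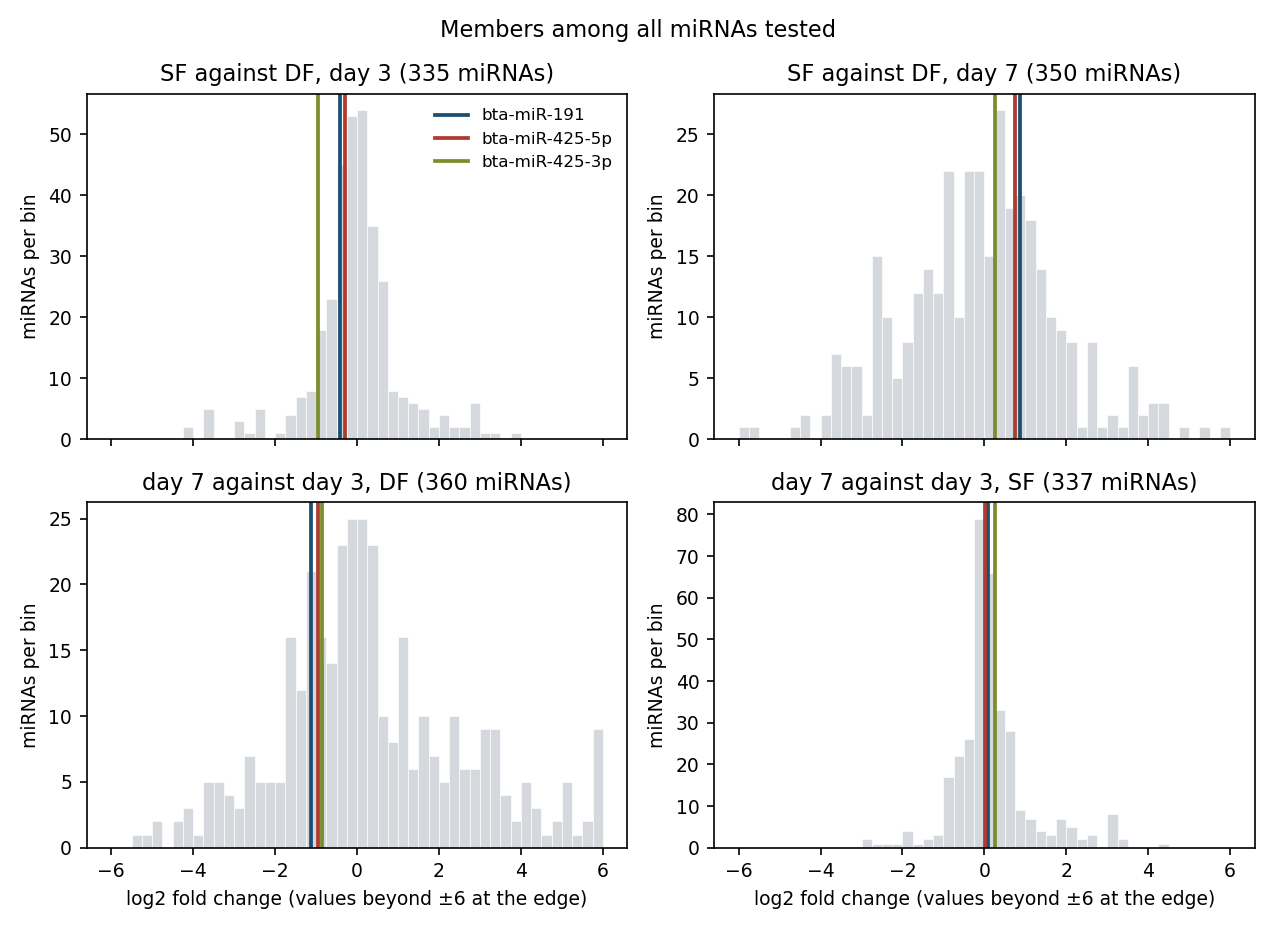
Number of miRNAs (y axis) by log2 fold change (x axis, bins of 0.25, values beyond 6 placed in the outermost bins) in the 4 comparisons, with vertical lines at the 3 members. bta-miR-191 and bta-miR-425-5p lie on the lower side in DF over time, at -1.12 and -0.94, and on the higher side for SF against DF at day 7, at 0.87 and 0.75, within the body of both distributions.

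The 2 major products kept nearly the same proportion in every library. miR-191 had 85.6, 69.4 and 62.6 reads per read of miR-425-5p in SF and 75.9, 81.6 and 75.8 in DF at day 3. At day 7 it had 78.2, 74.4 and 71.1 in SF and 63.9, 79.0 and 63.9 in DF. The ratio thus stayed between 62.6 and 85.6 with a geometric mean of 72.8, while the normalized read count of miR-191 itself varied 2.49-fold. On the log2 scale the SD over the 12 libraries was 0.15 for the ratio and 0.45 for miR-191. A ratio within a library does not depend on size factors.

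The mean log2 ratio of miR-191 to miR-425-5p differed between groups by -0.11 (SF minus DF, day 3), 0.12 (SF minus DF, day 7), -0.19 (day 7 minus day 3, DF) and 0.05 (day 7 minus day 3, SF). By two-sided exact permutation tests of 3 against 3 libraries, p was 0.5, 0.4, 0.3 and 0.8, and the smallest p this design allows is 0.1. No comparison of 3 against 3 could therefore have passed a threshold of 0.05. In SF against DF at day 7 and in DF over time the differences of the ratio were smaller than those of miR-191 and miR-425-5p themselves. The ratio of miR-425-5p to miR-425-3p ran from 13.4 to 124, the highest in the SF library of day 3 with 1 read of miR-425-3p. Its 4 log2 differences, in the same order, were 0.81, 0.45, -0.13 and -0.49 (exact permutation p = 0.5, 0.3, 0.7 and 0.8), and over the 8 tests of both ratios all adjusted p were 0.8.

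**Figure D4:**
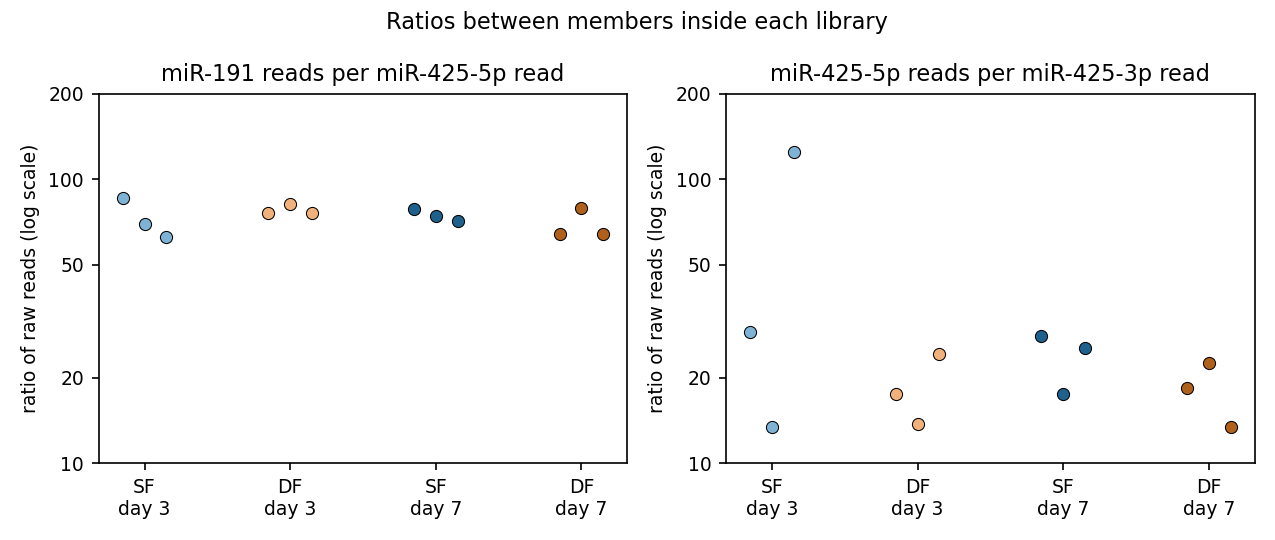
Ratio of raw reads within each library (y axes, log scale) for bta-miR-191 over bta-miR-425-5p (left) and bta-miR-425-5p over bta-miR-425-3p (right) in the 4 groups (x axis), 1 point per library. The left ratio stays between 62.6 and 85.6 in all 12 libraries, and the right one runs from 13.4 to 124 on few reads.

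Likeness to other miRNAs was described by Pearson's r of log2(normalized read count + 1) over the 12 libraries, among miRNAs with a mean of at least 10 reads per library. The libraries share groups and size factors, and no test was made. For miR-425-5p, the miRNA most alike of 185 was miR-191 (r = 0.946), followed by miR-744 (0.935), miR-148b (0.927), miR-3431 (0.908) and miR-450b (0.904). For miR-191, miR-425-5p came in the 4th place of 185, after miR-16b (0.967), miR-15b (0.955) and miR-744 (0.946), and before miR-92b (0.943). These partners were likewise lowest in DF at day 7. miR-16b had a mean of 1052 ± 225 (SD, n = 3) there against 1961 to 2425 in the other group means, and miR-744 had 12.7 ± 4.44 against 50.6 to 73.7. miR-425-3p was not close to any miRNA, with a highest r of 0.462 (miR-6120-3p), followed by miR-194 (0.455), let-7e (0.428), miR-652 (0.428) and miR-424-3p (0.412). Its r was 0.271 with miR-191 and 0.193 with miR-425-5p, at counts where sampling alone sets much of the variation.

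Since miR-191 is used as a reference miRNA, its steadiness was set beside 8 miRNAs in common use for the same purpose. The SD of log2 levels over the 12 libraries was 0.45 for miR-191, the 65th smallest of 186 miRNAs, and 0.39 for miR-425-5p, the 51st, with a median of 0.60 over these miRNAs. These 186 had a mean of at least 10 reads per library. miR-425-3p lies under that mean, and its SD of 0.65 would stand 98th, at counts where sampling alone sets much of the variation. miR-93 was steadier (0.20, the 11th), as were miR-26a (0.32), miR-423-5p (0.33) and, narrowly, miR-103 (0.44). miR-25 (0.48), miR-16a (0.50), miR-16b (0.52) and miR-423-3p (0.56) varied more. The highest group mean of miR-191 was 2.15 times the lowest, that of miR-425-5p 1.90 times and that of miR-93 1.15 times.

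The reference list was also read from the tests over all miRNAs. For SF against DF at day 3, 0 of 8 were called in edgeR or DESeq2, 2 of 8 passed the FDR in edgeR, both lower in SF and the only ones at an unadjusted p of at most 0.05, and the median log2 fold change of the list was 0.04. At day 7, 3 of 8 were called higher in SF, namely miR-25 (1.13), miR-16b (1.08) and miR-423-3p (1.37), beside 33.4% of all miRNAs called. In the same comparison miR-103 (-0.84) and miR-16a (-0.83) were lower in SF past the FDR, with a list median of 0.47. With library size alone only miR-423-3p of these was called, in the same direction. In DF over time 2 of 8 were called lower, miR-16b (-1.22) and miR-423-3p (-1.11), beside 40.3% of all miRNAs called. Past the FDR at any fold 4 of 8 were lower, these and miR-25 (-0.88) and miR-423-5p (-0.56), and 2 of 8 were higher, miR-103 (0.78) and miR-16a (0.47), with a list median of -0.34. In SF over time 0 of 8 were called in edgeR (1 of 8 at an unadjusted p of at most 0.05) or in DESeq2 (list median 0.10). The interaction was called for 2 of 8, miR-16b and miR-423-3p, both positive, beside 26.5% of all miRNAs (list median 0.30). Among the 6 reference miRNAs past the FDR in DF over time, miR-191 thus shared its direction with 4 and went opposite to 2, with the same signs under TMM factors and library size alone. The other 2, miR-93 (-0.13) and miR-26a (0.12), did not pass, and the sign of miR-26a turned with library size alone.

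**Figure D5:**
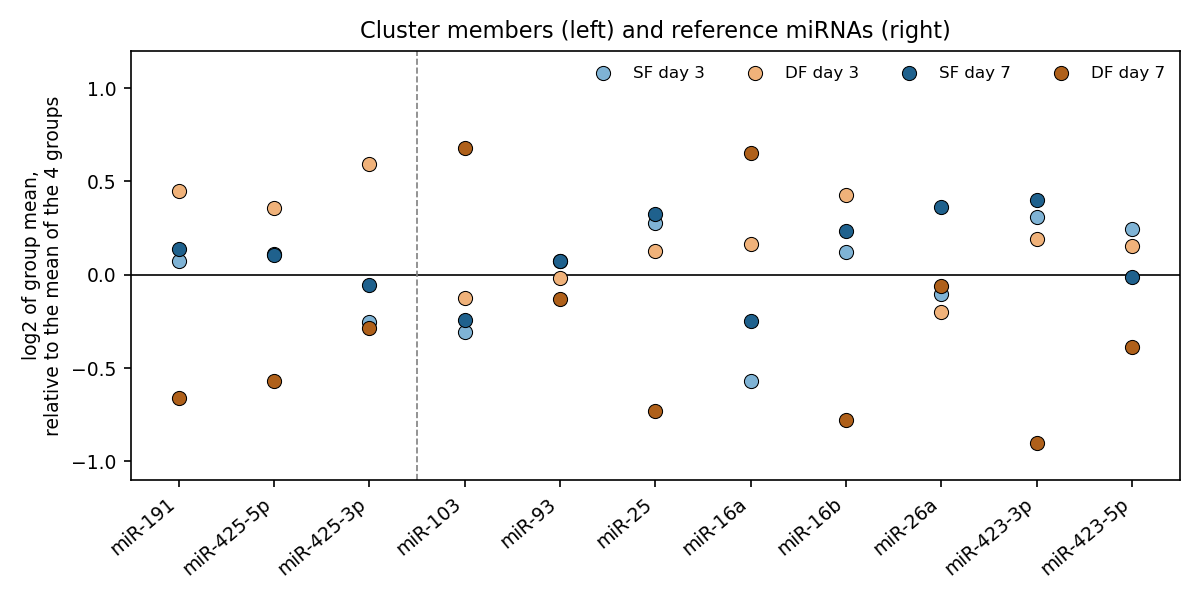
Log2 of the mean normalized read count of each group relative to the mean of the 4 groups' log2 values (y axis) for the 3 cluster members, left of the dashed line, and 8 reference miRNAs (x axis). Points are groups. DF at day 7 is the lowest group for bta-miR-191 and bta-miR-425-5p, and also for miR-93, miR-25, miR-16b, miR-423-3p and miR-423-5p. It is the highest for miR-103 and miR-16a. The groups of miR-93 lie close together (highest mean 1.15 times the lowest).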

How the data were processed

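The 12 small RNA libraries comprised 3 of each follicle class and day. The authors removed adapters with cutadapt, mapped the reads to the bovine assembly UMD 3.1 with Bowtie 2, counted them on bovine miRBase miRNAs with miRDeep2 and deposited raw read counts per pair of mature miRNA and precursor, without normalization. The notes of the submitters also name CASAVA 1.8.0 and FastQC. Groups came from the sample labels. A read that matches several precursors can be counted at each, so the entry with the largest sum over the libraries stood for each name. The cluster members and the marker and reference lists were chosen with earlier results of these data known.

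Counts were tested in R 4.3.3 with edgeR 4.0.16 (quasi-likelihood F test, two-sided, median-of-ratios factors, prior count 0.125) over miRNAs that had a minimum of 1 read in 2 or more replicates of a group, with p-values adjusted over all miRNAs tested. A call required a log2 fold change of 1 or more in size, p up to 0.05 and an FDR up to 10%. The SE is the log2 fold change divided by the square root of F, an approximation. Fold changes used the factors of their own 6 libraries. Ratios had 0.5 added to both counts for their tests and were compared with exact permutation tests. The reads per library (160418 to 405129) set the counting error, and intervals are Wilson intervals. The fits were tried on simulated counts with changes larger than those of the members. How well changes of the members' size are found was not tested.

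Same-numbered SF and DF libraries of day 7 deviated together (r = 0.127, 0.159 and 0.181 over 186 miRNAs, each above 0.1). The labels do not tie these numbers to animals. Libraries of different numbers were not compared in this way, so whether the libraries are paired is not settled. The day 7 fits given above used no pairing, and the replicate block was an alternative. In the other comparisons not every pair was above 0.1. With the replicate block at day 7 the log2 fold change of miR-191 was 0.85 (adjusted p = 0.00520) and that of miR-425-5p 0.74 (adjusted p = 0.0593).

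The 3 members, the 5 miRNAs most alike each, the 8 reference miRNAs and the marker lists were named by rule. Sharing of seeds was not analysed here. Alternatives were DESeq2 1.42.0, TMM factors, library size alone, other filters, every entry kept, sums over the precursors of a name, the replicate block, a prior count of 2, all 12 libraries in one fit, an FDR of 5%, other values added in ratios (0.1 and 1) and leaving out each library.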

Additional observations from a re-analysis of the deposited data

Results flagged for a closer look

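The difference between SF and DF was not the same at day 3 and day 7 for 2 of the 3 members, as tested by the interaction over all 12 libraries in edgeR. For miR-191 it was 1.17 on the log2 scale (adjusted p = 0.000749), with SF below DF at day 3 (-0.42) and above it at day 7 (0.87), and no overlap between SF and DF on either day. For miR-425-5p it was 0.92 (adjusted p = 0.0363), from -0.30 at day 3, where SF and DF overlapped, to 0.75 at day 7, where they did not. Without SF replicate 1 of day 3 the adjusted p of this interaction was 0.104. The interaction of miR-191 was 0.98 without SF replicate 1 of day 7, just under the fold threshold. In the edgeR fit of all 12 libraries the day 3 difference of miR-191 was -0.37 and did not pass the FDR (adjusted p = 0.237). Among all miRNAs tested, 26.5% had a called interaction and 29.1% passed the FDR at any fold. SF and DF did not overlap for 27.8% of miRNAs at day 3 and 45.7% at day 7. For miR-191 and miR-425-5p, DF at day 7 was the lowest group. It was also the group with the highest summed leukocyte and stroma miRNAs, whose part in the result was not tested.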

How the results depend on the processing

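Of 265 alternative values of the members' tests, 248 kept the direction and the call, 8 reversed, 8 gained a call and 1 lost it, and of 64 values of the ratios 60 kept and 4 reversed. The causes were not tested. Of the 248, 4 below the fold threshold no longer passed the FDR, namely miR-191 at day 3 in the fit of all 12 libraries (adjusted p = 0.237), miR-425-5p at day 7 with library size alone (0.117) or without DF replicate 1 (0.144), and its interaction without SF replicate 1 of day 3 (0.104). Library size alone moved the median of all miRNAs by -0.15 (SF against DF, day 7), -0.14 (DF over time) and -0.14 (SF over time). Under it miR-425-5p in DF over time was -1.09 (called; relative to the median -1.004, and -0.996 in the reported fit) and in SF over time miR-191 was -0.0499 and miR-425-5p -0.12. With every entry as listed miR-191 at day 7 was 1.03 (called), and miR-425-5p was -1.09 in DF (called) and -0.0072 in SF over time. In the fit of all 12 libraries the latter was -0.0028.

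Numbers of miRNAs called at day 3 were 19 as reported, 11 with DESeq2, 12 with at least 10 reads in 3 samples and 8 in the fit of all 12 libraries. In DF over time 145 became 92 with that filter. In SF over time 2 became 5 with DESeq2, 12 without a filter, 0 with at least 10 reads in 3 samples (edgeR, 25 at an unadjusted p of at most 0.05), 10 with every entry, 7 with the replicate block and 1 in the fit of all 12 libraries. The replicate block changed no call of a member.

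Leaving out 1 library gave 10 to 21 called at day 3 and 0 to 20 in SF over time (25 to 60 at an unadjusted p of at most 0.05). For miR-425-3p it gave -1.82 to -0.56 at day 3 and -0.16 to 1.07 in SF over time. For miR-425-5p it gave -1.01 to -0.91 in DF over time (called without DF replicate 1 or 2 of day 3), -0.15 to 0.15 in SF over time and 0.77 to 1.07 in the interaction (called at 1.07 without SF replicate 3 of day 3 and at 1.03 without SF replicate 2 of day 7). For miR-191 it gave -0.11 to 0.17 in SF over time and 0.98 to 1.29 in the interaction. Log2 ratios ran from -0.048 to 0.18 (miR-191 to miR-425-5p, SF over time), -0.31 to 0.066 (miR-425-5p to miR-425-3p, DF over time) and -1.12 to 0.24 (the same, SF over time). miR-425-3p was not tested under the filter of 10 reads, and depth limits it most.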
